A study of Mus musculus with 6 samples.

Results

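Interferon-inducible GTPases were followed through 4 treatment groups of a mouse prostate tumour model with single-cell RNA sequencing in droplets. The 10 genes described here were chosen by symbol from the 18848 genes of the deposited expression table. They are 5 immunity-related GTPases (IRG proteins; Irgm1, Irgm2, Igtp, Iigp1 and Ifi47) and 5 guanylate-binding proteins (GBP proteins; Gbp2, Gbp3, Gbp4, Gbp5 and Gbp7), and all 10 were present in the table. All tumours grew from PPS-ICBR, a mouse prostate cancer line that resists checkpoint blockade, in C57Bl6 mice; the labels name tumours and do not say whether each came from a separate animal, so p-values may measure the spread between tumours only. One group received a chow supplemented with 1,3-butanediol, a precursor of the ketone body beta-hydroxybutyrate, together with antibodies to PD-1 and CTLA-4 at a listed 0.2 mg biweekly (BD+ICB). The others received the butanediol chow without antibodies (BD), the antibodies with standard chow (ICB), or standard chow without antibodies (SD). The butanediol chow was listed with 80 mL butanediol, 120 mL water, 198 g chow and 2 g saccharine. Each group held 3 tumours, named here by group and replicate number. The series asks whether a ketone-raising diet changes the resistance of these tumours to immunotherapy.

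The BD and SD tumours shared 1 library of 1705 cells, and the BD+ICB and ICB tumours shared another of 4044 cells. Diet could therefore be compared within a library, whereas blockade and library coincide and cannot be told apart. Cells came from the leukocyte layer of a density gradient, so that the recovered cancer and mesenchymal cells are those that remained in that layer. The 5749 deposited cells fell into 19 deposited classes, and between 70 and 913 cells came from each tumour, with 510984 to 13007506 unique molecular identifiers (UMIs) per tumour. Most class names, spelled out here, matched their markers. Cxcr2+ neutrophils had all 6 neutrophil markers above 20 CPM, counts scaled to the total UMIs of the tumour's cells of that class. Proliferating cancer cells had all 4 proliferation markers but only 2 of 5 epithelial markers above it. All 5 mesenchymal markers also passed it in these cells, summing to 4439 CPM beside 909 CPM for the epithelial list. In the class named mesenchymal the same lists summed to 12404 and 1115 CPM. The class named Nos2+ dendritic cells went against its name, with 8 of 8 macrophage markers and 1 of 7 dendritic markers above 20 CPM, and is called the Nos2+ class here. The libraries shared 2 cell barcodes among the deposited cells.

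IRG and GBP proteins are large GTPases that interferons, above all interferon-gamma, induce in immune and non-immune cells. In mouse cells, IRG effectors and GBPs gather on the membranes of vacuoles that hold intracellular parasites or bacteria, and the IRGM regulators keep the effectors off the cell's own membranes. GBPs also help bacterial products reach inflammasomes. Such genes are widely read in tumours as a record of interferon exposure.

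The members were chosen as interferon-inducible genes, so motifs of the interferon response in their promoters are a description, not a separate finding. RefSeq windows of the GRCm38.p6 build, running from 250 bases before to 50 bases after an annotated start, were found for 8 of the 10 genes, with 2 windows for Gbp3. Each was searched on both strands for the core of the interferon-stimulated response element, GAAA followed after any 2 bases by GAAA, and for TTCNNNGAA, the gamma-activated site. The response element core was present for 7 of the 8 genes, against 3.44% of 32851 promoter windows of that length. The gamma-activated site was present for 4 of the 8 genes (Irgm2, Igtp, Gbp5 and Gbp7), against 8.3% of all windows. Stretches of 80 bases around these letters are given for the genes the results below turn on, written along the gene's strand, with the capitals marking matches to either motif. Irgm1 (chr11:48871403-48871482, minus strand), Igtp (chr11:58199487-58199566, plus strand), Irgm2 (chr11:58214878-58214957, plus strand), Gbp2 (chr3:142620569-142620648, plus strand), Gbp3 (chr3:142559967-142560046, plus strand), Gbp5 (chr3:142496734-142496813, plus strand) and Gbp7 (chr3:142530248-142530327, plus strand) read as follows.
Irgm1: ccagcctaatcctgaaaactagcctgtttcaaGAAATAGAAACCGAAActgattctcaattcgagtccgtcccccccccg
Igtp: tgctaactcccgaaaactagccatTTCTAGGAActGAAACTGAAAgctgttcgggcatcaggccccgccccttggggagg
Irgm2: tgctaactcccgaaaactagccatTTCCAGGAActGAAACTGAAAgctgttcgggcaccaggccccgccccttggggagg
Gbp2: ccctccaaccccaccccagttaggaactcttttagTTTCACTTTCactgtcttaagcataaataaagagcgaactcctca
Gbp3: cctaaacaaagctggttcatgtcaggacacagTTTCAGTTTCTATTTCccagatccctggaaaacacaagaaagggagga
Gbp5: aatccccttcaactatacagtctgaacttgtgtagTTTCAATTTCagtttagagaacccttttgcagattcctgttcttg
Gbp7: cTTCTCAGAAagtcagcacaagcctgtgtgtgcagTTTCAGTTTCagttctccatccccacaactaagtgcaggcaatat

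In the GBP stretches the response element core is written in its reverse complement, and in the IRG stretches it is written directly. Igtp and Irgm2, neighbours on chromosome 11, were identical at 78 of the 80 positions shown. In Gbp3 and in Irgm1, 2 matches overlap within 1 run. Matches to the core lay 24 to 165 bases before the annotated start, nearest in Irgm1 and farthest in Gbp5. The gamma-activated sites of Gbp5 lay in its window but outside the stretch shown. The window of Ifi47 held neither motif, which says only that these letters are not in that window. No window was used for Gbp4 or Iigp1. In GRCm38.p6, Irgm1 lies at chr11:48865245-48871420, Ifi47 at chr11:49076587-49096987, Igtp at chr11:58199556-58207592 and Irgm2 at chr11:58214977-58222783. Gbp5 (chr3:142496934-142522344), Gbp7 (chr3:142530336-142550151), Gbp3 (chr3:142560016-142573213) and Gbp2 (chr3:142620663-142638008) follow each other on chromosome 3, and Gbp4 lies at chr5:105115767-105139586.

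Read depth differed widely between the members. Gbp2 held 23300 of the 67209 UMIs of the 10 genes, followed by Iigp1 with 7891, Gbp7 with 6867, Ifi47 with 5923, Irgm1 with 5789 and Gbp3 with 5486. Gbp4 had 3748, Igtp 3707, Gbp5 3372 and Irgm2 1126. The 10 genes together made up 0.0967% of all UMIs. After the filter on low counts, Irgm2 entered the fits of 8 classes and Gbp7 those of 15, with the other members in between. How reads shared by near-identical family members were assigned is not given in the sources used here, so a part of the counts of these multigene families may be split or lost.

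The levels of the 10 genes differed between the cell classes, in an order that most members shared and Iigp1 followed least. Counts were summed for each tumour within each class that held 10 or more of its cells and given as CPM. They describe classes that were clustered from the same cells, so no test was made between classes. The summed level of the 10 genes was highest in Ifit+ neutrophils, a class named for interferon-induced genes, with 4977 ± 921 CPM (SD, n = 4 tumours). The 4 tumours had 4923 CPM in BD+ICB tumour 3 and 4512, 4189 and 6283 CPM in ICB tumours 1, 2 and 3. Ifit+ monocytes reached 4496 CPM and regulatory T cells 2197 CPM, each in 1 tumour.

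Below them came Vcan+ monocytes with 2116 ± 1003 CPM (n = 7), Cxcr2+ neutrophils with 1520 ± 1564 CPM (n = 11), the Nos2+ class with 1369 ± 422 CPM (n = 6) and proliferating cancer cells with 980.2 ± 974 CPM (n = 7). Mesenchymal cells were lowest among the 18 classes with a level, at 357 ± 341 CPM (n = 6). From Vcan+ monocytes down to mesenchymal cells, no neighbouring classes in the order differed by more than the larger of their SDs. The SDs include the treatment groups, which differed within classes as described further on.

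**Figure D1:**
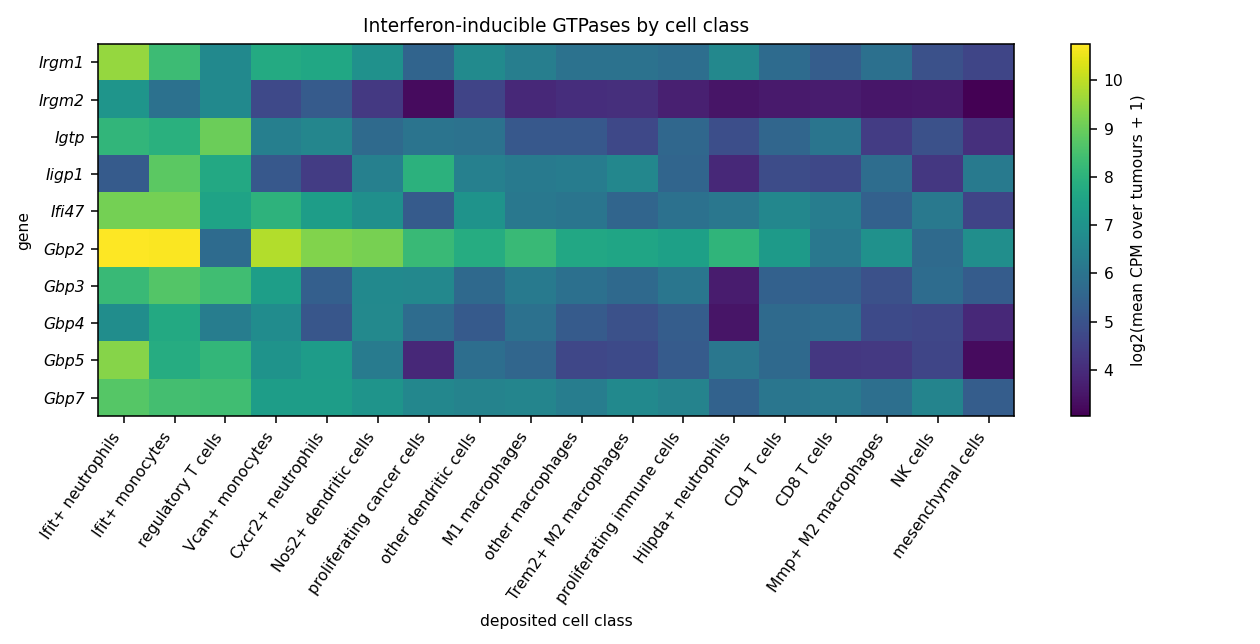
Mean level of each GTPase gene (rows) in each deposited class (columns, ordered by the summed level of the 10 genes) as log2(mean CPM over tumours + 1). Gbp2 was the brightest row in Ifit+ neutrophils at 1728 CPM and in Vcan+ monocytes at 934 CPM, while Iigp1 was brighter in proliferating cancer cells at 256 CPM than in Ifit+ neutrophils at 37.2 CPM.

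Iigp1, an effector IRG that loads onto parasite vacuoles, set itself apart from the rest. Proliferating cancer cells held 54% of its UMIs with 2.44% of the cells, against 20.8% of the UMIs of Gbp2 and 23.7% of those of all 10 genes. The class supplied 15% to 25% of the UMIs of BD+ICB tumours, 0% to 7.45% of BD tumours, 24.3% to 33.1% of ICB tumours and 18.9% to 22.4% of SD tumours. In proliferating cancer cells Iigp1 made up a median of 24.9% of the UMIs of the 10 genes (range 8.85% to 31% over 7 tumours). In Cxcr2+ neutrophils its share had a median of 1.13% (0% to 3.03% over 9 tumours), in Ifit+ neutrophils 0.684% (0.526% to 1.01% over 4) and in Vcan+ monocytes 1.36% (0.965% to 2.5% over 6). The ranges of the cancer cells and of these 3 myeloid classes did not overlap. Other classes did overlap the cancer cells in this share. Mmp+ M2 macrophages had 2.35% to 19.7% (median 13.5%), Trem2+ M2 macrophages 0% to 28% and other macrophages 3.23% to 23.6%. M1 macrophages had 5.81% to 14.6% and mesenchymal cells 8.22% to 40.9%. Other dendritic cells had 2.9% to 20.6%, the Nos2+ class 1.18% to 12.9% and proliferating immune cells 1.52% to 11%. CD4 T cells had 1.74% to 11.8% and CD8 T cells 2.21% to 11.4%. Ifit+ monocytes (9.9%) and regulatory T cells (9.41%), each in 1 tumour, also lay within the range. The mean level of Iigp1 was highest in Ifit+ monocytes, at 445 CPM in 1 tumour, beside 256 ± 286 CPM in proliferating cancer cells (SD, n = 7).

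Gbp2, a prenylated GBP that coats parasite vacuoles, was the leading member in most classes. Its share of the 10 genes was 44.2% at the median in Vcan+ monocytes (42.8% to 48.9%), 38.9% in Cxcr2+ neutrophils (30.8% to 45.7%) and 31% in proliferating cancer cells (21.9% to 32.9%). The median was 14.3% in CD8 T cells (9.42% to 18.5%), 9.52% in NK cells (8.11% to 19.4%) and 13.2% in CD4 T cells, whose range of 10.8% to 46.1% overlapped that of Vcan+ monocytes. In CD8 T cells Igtp, an IRGM regulator, had a similar share at a median of 13.4% (7.48% to 18.2%). In regulatory T cells of the 1 tumour with a level, Igtp reached 517 CPM and Gbp2 51.7 CPM.

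Gbp5, a GBP known for its part in inflammasome assembly, varied widely between classes relative to Gbp3. It had 4.05 UMIs for each UMI of Gbp3 in Cxcr2+ neutrophils, 4.65 in Hilpda+ neutrophils and 2.14 in Ifit+ neutrophils. The same ratio was 1.26 in other dendritic cells, 0.81 in Vcan+ monocytes, 0.228 in mesenchymal cells and 0.146 in proliferating cancer cells. It was 37 in the small class of Batf3+ dendritic cells, which had too few cells for a level. That value rests on only 1 Gbp3 UMI, in ICB tumour 3. Gbp5 and Gbp3 lie on the same stretch of chromosome 3, which also holds Gbp2 and Gbp7. Among the 10 genes Gbp5 had a median share of 11.6% in Cxcr2+ neutrophils, 13.7% in Ifit+ neutrophils and 12.9% in the regulatory T cells of 1 tumour. Such ratios and shares compare UMIs of different genes in the same cells and are not corrected for how well each transcript is captured.

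**Figure D2:**
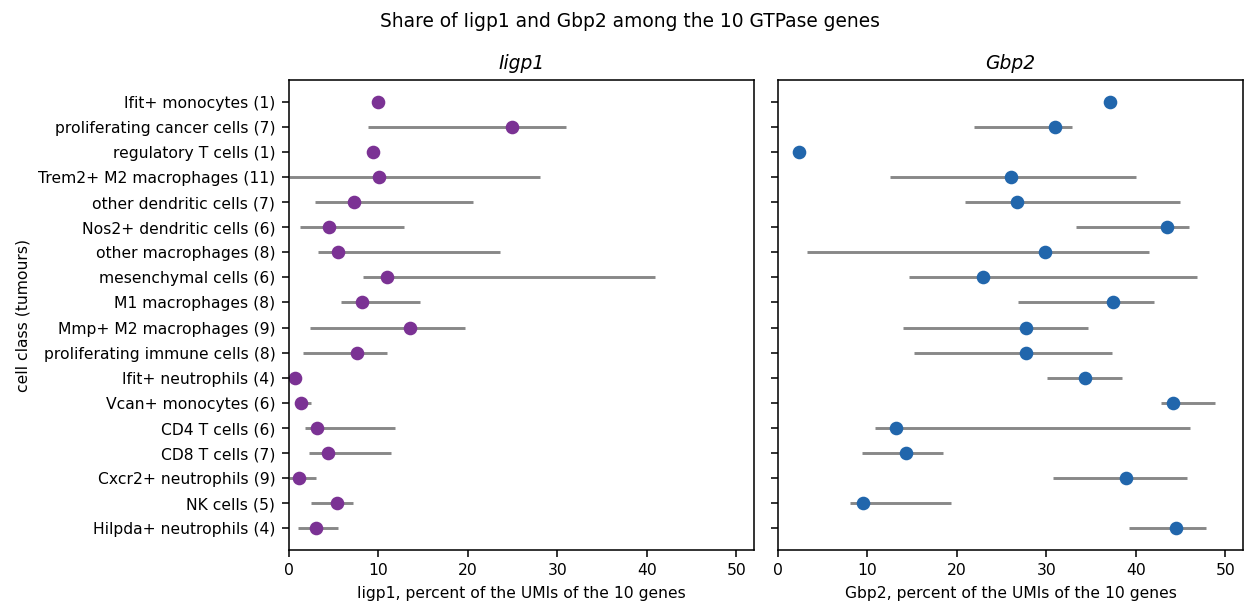
Share of Iigp1 (left) and Gbp2 (right) among the UMIs of the 10 genes in each deposited class, with the median as a point, the lowest to the highest tumour as a line, and the number of tumours in brackets. The Iigp1 share was 24.9% at the median in proliferating cancer cells and 0.684% in Ifit+ neutrophils, whereas the Gbp2 share was 31% and 34.3% in the same classes.

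Across the 18 classes, Pearson's r between a member's log2(CPM + 1) and the mean pattern of the other 9 members was 0.33 for Iigp1 and 0.61 for Gbp2. For the other 8 members it lay between 0.82 (Gbp4) and 0.95 (Gbp7). The closest pair was Irgm2 and Gbp7 at 0.93, and the most distant was Iigp1 and Gbp5 at 0.07. Among 7521 genes with a mean of at least 10 CPM, a count that includes the members, the other genes most like the members' mean pattern over the 18 classes included Tap1 (r = 0.93), Zbp1 (0.88), Stat2 (0.88), Ifi35 (0.87), Daxx (0.86), Xaf1 (0.86), Rnf34 (0.86), Tap2 (0.85) and Ogfr (0.85). These correlations are descriptions over classes that share tumours, libraries and depth, and carry no p.

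The first comparison asks what the butanediol diet did under blockade, within the library that held both groups. In proliferating cancer cells all 10 members had a positive fitted fold change in BD+ICB over ICB tumours, and Irgm1 and Gbp5 rose past the threshold. Ifi47 rose in Cxcr2+ neutrophils. None of the 107 pairs of a member and a class that entered a fit was called lower by edgeR; in CD4 T cells only 2 members entered. In sums over all cells of a tumour, all 10 members had positive fold changes but none passed the test.

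Proliferating cancer cells had at least 10 cells in BD+ICB tumours 1 and 2, with 12 and 11 cells, and in all ICB tumours, with 36, 16 and 17 cells. The summed level of the 10 genes was 2862 and 1597 CPM in those BD+ICB tumours, against 511, 625 and 991 CPM in ICB tumours 1, 2 and 3. The groups did not overlap. BD tumours held only 2 cells of this class, so it could not be compared between BD and SD tumours.

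Irgm1, which keeps IRG effectors in check and takes part in autophagy, had 89.1 and 84.2 CPM in BD+ICB cancer cells, against 41.6, 31.4 and 45.5 CPM in ICB cancer cells. Both BD+ICB tumours were above every ICB tumour, and the log2 fold change was 1.21 (SE 0.17; edgeR's quasi-likelihood test, Benjamini-Hochberg adjusted p = 0.00416). Gbp5 had 37.7 and 22.4 CPM in BD+ICB cancer cells, against 13, 8.5 and 8.39 CPM in ICB cancer cells. The groups did not overlap, and the log2 fold change was 1.63 (SE 0.29; edgeR, adjusted p = 0.017). Without BD+ICB tumour 1 the log2 fold change of Gbp5 was 1.20 (edgeR adjusted p = 0.248), and without ICB tumour 2 it was 1.52 (adjusted p = 0.0761).

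The remaining 8 members of the cancer cells did not pass edgeR's test, whereas DESeq2 also called Gbp3 (adjusted p = 7.3e-07) and Gbp2 (0.0228). Iigp1 had 826 and 434 CPM in BD+ICB cancer cells, against 127, 141 and 203 CPM in ICB cancer cells, and Gbp2 had 934 and 506 CPM in BD+ICB cancer cells, against 133, 175 and 326 CPM in ICB cancer cells. Gbp3 had 271 and 168 CPM in BD+ICB cancer cells, against 56.3, 67.5 and 102 CPM in ICB cancer cells (log2 fold change 1.65, edgeR adjusted p = 0.079). In all, 9 of the 10 members did not overlap between the groups, with Irgm2 the exception, and the median log2 fold change of the 10 members was 1.55. The share of all genes without overlap is not given here or below, so such counts of members are descriptions only. Of all genes tested in this class, 0.468% were called raised. The neutrophil marker list summed to 6.13 to 72.4 CPM in BD+ICB cancer cells and to 57 to 704 CPM in ICB cancer cells, and the macrophage list to 48.1 to 96 CPM and 72.8 to 649 CPM in the same order. Other lists separated the groups without overlap. The epithelial list summed to 426 to 589.9 CPM in BD+ICB cancer cells and 904 to 1173 CPM in ICB cancer cells, the monocyte list to 488 to 586 CPM and 680.4 to 772 CPM, and the proliferation list to 1239 to 1285 CPM and 1375 to 1520 CPM, in the same order. The part of these markers in the result was not tested.

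In Cxcr2+ neutrophils Ifi47, an effector IRG also known as Irgd, had 321, 551 and 384 CPM in BD+ICB tumours 1, 2 and 3, against 199, 105 and 151 CPM in ICB tumours. The groups did not overlap, and the log2 fold change was 1.57 (SE 0.32; edgeR, adjusted p = 0.0251), in a class where 0.101% of genes were called raised. The call was lost without BD+ICB tumour 2 (edgeR adjusted p = 0.156), BD+ICB tumour 3 (0.0687) or ICB tumour 2 (0.25), and without the filter on low counts (0.0782). Gbp2 had 668, 1725 and 1879 CPM in BD+ICB neutrophils, against 971, 610.3 and 604 CPM in ICB neutrophils. BD+ICB tumour 1 lay among the ICB tumours for Gbp2, whose log2 fold change of 1.09 did not pass the test (edgeR, adjusted p = 0.139). The 6 neutrophil markers summed to 42219 to 82500 CPM in BD+ICB neutrophils and to 50364 to 123994 CPM in ICB neutrophils.

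Vcan+ monocytes carried the largest number of Gbp2 UMIs of any class (21.8%). Their summed level of the 10 genes was 3330, 2524 and 3002 CPM in BD+ICB tumours, against 2219, 1145 and 2105 CPM in ICB tumours. The groups did not overlap for the sum or for 7 of the members, and overlapped for Gbp3, Igtp and Irgm2. None passed edgeR's test, where 0.18% of genes in this class were called raised. The closest were Gbp5, with 209, 173 and 186 CPM in BD+ICB monocytes, against 118, 50.9 and 125 CPM in ICB monocytes (log2 fold change 0.88, edgeR adjusted p = 0.118), and Gbp7, which takes part in assembly of the NADPH oxidase, with a log2 fold change of 0.71 (adjusted p = 0.166). The macrophage marker list summed to 2074 to 2506 CPM in BD+ICB monocytes and to 2975 to 4327 CPM in ICB monocytes, and its part was not tested.

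Over the 13 classes compared, 107 pairs of a member and a class were tested, of which 86 had a positive log2 fold change. Of these, 3 were called, all raised, where 0.119% of all 66457 gene and class pairs were called raised. The median log2 fold change of the member pairs was 0.52, beside -0.00 over all pairs. IRG pairs had a median of 0.49 (50 pairs) and GBP pairs one of 0.60 (57 pairs). In Mmp+ M2 macrophages the median was 0.84 with 8 of 8 members positive, and in Trem2+ M2 macrophages 0.77 with 9 of 9 positive. The count was 1 without ICB tumour 2, 6 without ICB tumour 1 and 7 without ICB tumour 3. In CD8 T cells 2 of 9 members were positive and the median was -0.42.

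**Figure D3:**
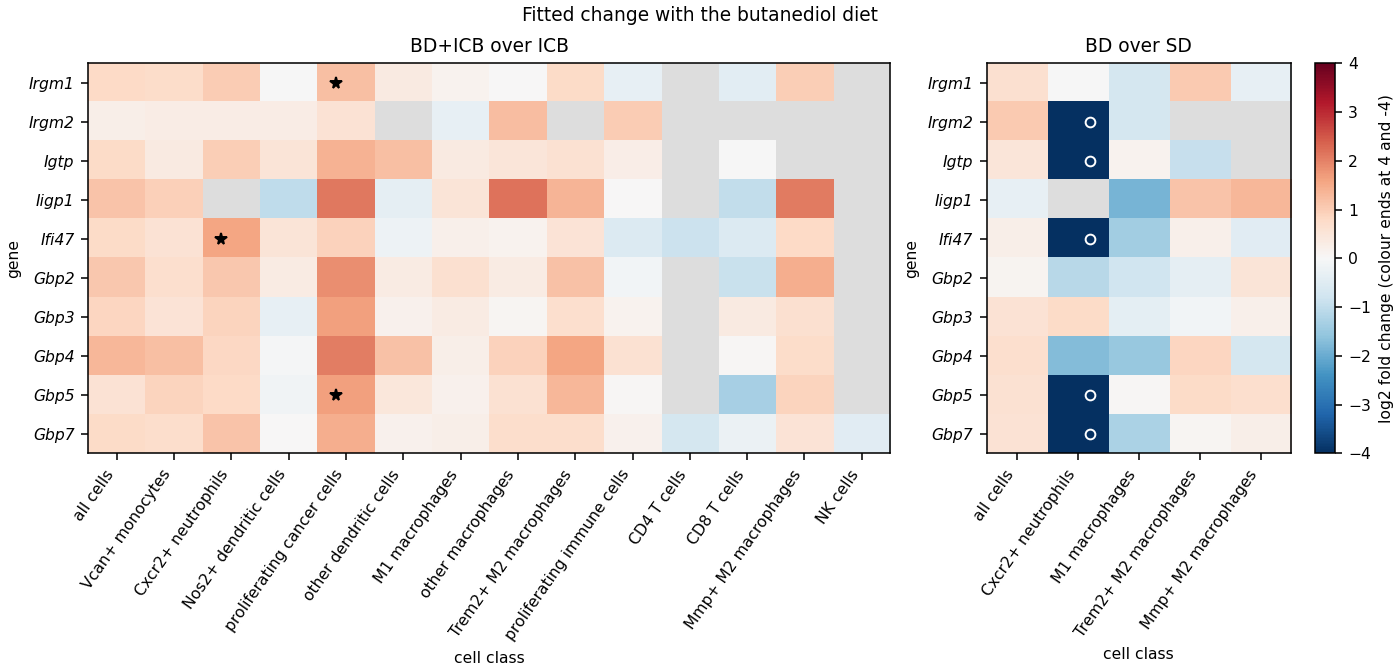
Fitted log2 fold change of each member (rows) by class (columns) for BD+ICB over ICB (left) and BD over SD (right), with all cells in the first column, grey where not tested, a star where edgeR's adjusted p was under 0.05, and a ring where 1 group had no UMI and the other more than 3, so that the fitted value is no bound. Stars mark Irgm1 and Gbp5 in proliferating cancer cells (1.21 and 1.63) and Ifi47 in Cxcr2+ neutrophils (1.57), and the right panel has none.

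In sums over all cells of a tumour, fewer cells of a type and less RNA per cell cannot be told apart. The 10 genes together had 1867, 1304 and 1540 CPM in BD+ICB tumours, against 763, 761 and 1123 CPM in ICB tumours, without overlap. For 7 of the members the groups did not overlap; Irgm1, Irgm2 and Gbp5 were the exceptions. None of the 10 was called, where 2.71% of all genes were called raised, and 4 had an unadjusted p under 0.05; DESeq2 called none. Without BD tumour 1 or SD tumour 1, 1 member was called. The median log2 fold change was 0.79, beside 0.00 over all genes. Gbp4 had 127, 86.4 and 82.4 CPM in BD+ICB tumours, against 41.8, 31.7 and 51.7 CPM in ICB tumours (log2 fold change 1.34, SE 0.45, edgeR adjusted p = 0.105). M1 macrophages supplied 18.4% to 20.5% of the UMIs in BD+ICB tumours and 5.61% to 9.43% in ICB tumours, and the Nos2+ class 6.18% to 12.3% and 0.984% to 2.95% in the same order; the part of this makeup in the summed levels was not tested.

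The same diet without antibodies gave no call. Of 36 pairs over 4 classes, none passed edgeR's test in BD over SD tumours, where 0.0103% of all pairs were called raised, and 2 had an unadjusted p under 0.05. DESeq2 also called none. The fitted log2 fold change was positive in 14 pairs, with a median of -0.38 beside -0.01 over all pairs. In 5 of these pairs, all in Cxcr2+ neutrophils, the BD tumours had no UMI and the SD tumours more than 3, and with these at their bounds the median was 0.07. Gbp4 also had no UMI in BD neutrophils but only 1 in SD neutrophils, and kept its fitted value.

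Only 27 BD neutrophils, in BD tumours 2 and 3, entered that comparison, with 58941 UMIs, so that a count of 0 allows up to 50.9 CPM at a floor of 3 counts over the group. The pooled levels in SD neutrophils of the 5 genes, Irgm2, Igtp, Ifi47, Gbp5 and Gbp7, were 14.8 to 33.9 CPM, and a difference was not detectable at that depth. The interval set by the floor covers counting error only. In M1 macrophages Ifi47 had 22.7 and 7.39 CPM in BD tumours 1 and 3, against 51.6 and 38.7 CPM in SD tumours 1 and 3, without overlap (log2 fold change -1.38, edgeR adjusted p = 0.554).

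In sums over all cells the 10 genes together had 429, 93.9 and 188 CPM in BD tumours, against 415, 99.5 and 178 CPM in SD tumours. The groups overlapped for the sum and for each of the 10 members. In both groups tumour 1 was the highest for the sum. None of the 10 was called, although 11.1% of all genes were called raised in this comparison; DESeq2 also called none, and 1 member had an unadjusted p under 0.05 in edgeR's test. The smallest adjusted p was that of Irgm2, with 13, 1.96 and 6.84 CPM in BD tumours, against 8.29, 3.12 and 2.72 CPM in SD tumours (log2 fold change 1.05, SE 0.48, edgeR adjusted p = 0.143). Gbp2, the deepest member, had a log2 fold change of 0.11 with an SE of 0.70. Leaving out SD tumour 1 gave 2 calls, Irgm2 at 1.80 (edgeR adjusted p = 0.0233) and Gbp3 at 1.31 (0.0415), and leaving out BD tumour 1 turned the sign of 8 of the 10 members.

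**Figure D4:**
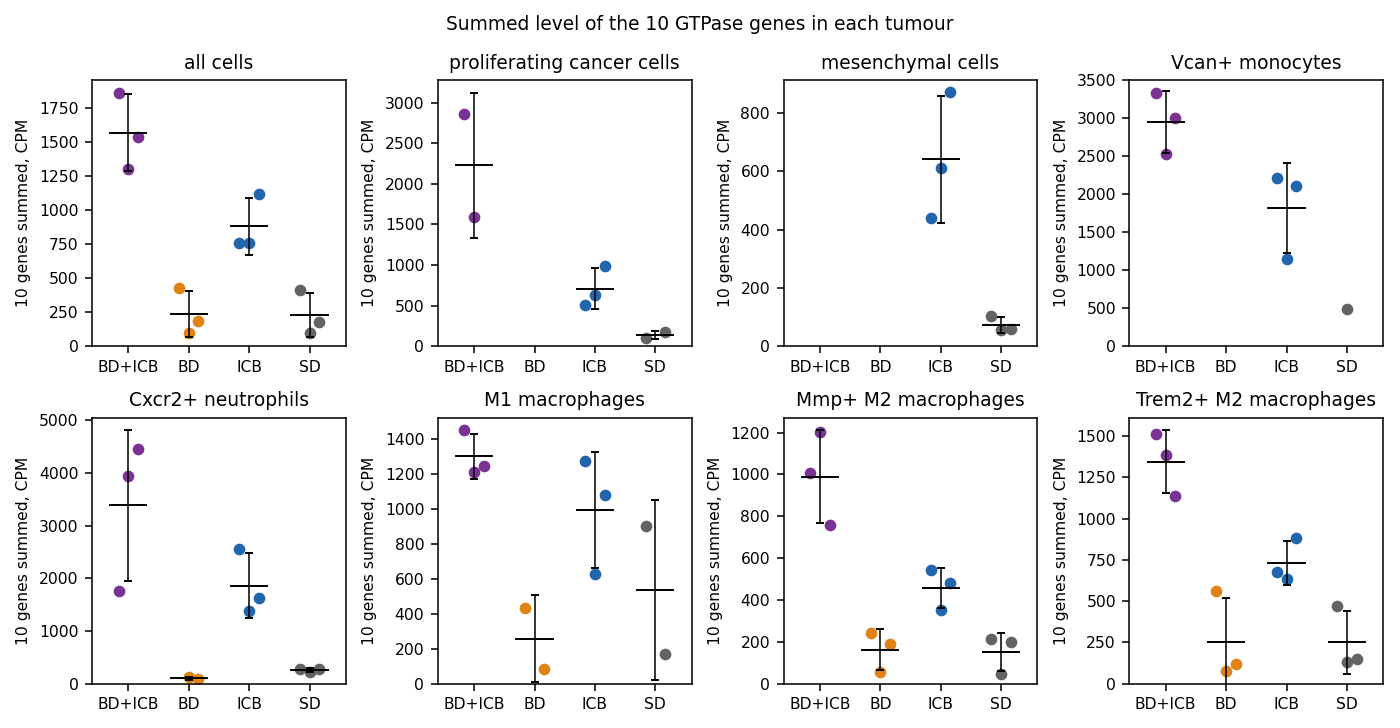
Summed level of the 10 genes (CPM) in each tumour, by group, in all cells and in 7 classes, each panel with its own axis from 0; points are tumours with at least 10 cells of the class, and bars give the mean and SD where there are at least 2. In all cells the BD+ICB tumours lie between 1304 and 1867 CPM and the ICB tumours between 761 and 1123 CPM, while BD and SD tumours overlap.

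Whether the diet acted differently with and without antibodies was asked by the difference of the diet effects. None of 36 pairs was called, where 0.00515% of all pairs were called raised, and the smallest edgeR adjusted p was 0.618; 7 pairs had an unadjusted p under 0.05, and DESeq2 called none. The difference was positive in 35 pairs, with a median of 0.98 beside -0.00 over all pairs, and these include the Cxcr2+ neutrophil genes at 0 in BD tumours. In all cells no member had an unadjusted p under 0.05, the median was 0.28, and 0% of genes were called raised by edgeR. The largest was Iigp1, at 1.49 (SE 0.98, edgeR adjusted p = 0.576).

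Averaged over both libraries, the diet gave no call among 36 pairs, where 0.0154% of pairs were called raised; 3 pairs had an unadjusted p under 0.05 and DESeq2 called none. In all cells Gbp7 rose, with 184, 129 and 127 CPM in BD+ICB tumours and 63.8, 19.6 and 33.3 CPM in BD tumours, against 86.6, 83.3 and 111 CPM in ICB tumours and 42.7, 26.2 and 28 CPM in SD tumours. BD+ICB and ICB tumours did not overlap, while BD and SD tumours did. The log2 fold change was 0.66 (SE 0.21, edgeR adjusted p = 0.0314), and 15.4% of all genes were called raised by the same test. The call was lost on leaving out BD tumour 1 (0.37, edgeR adjusted p = 0.207), BD+ICB tumour 1 (0.57, 0.0635), SD tumour 2 (0.60, 0.0707), SD tumour 3 (0.61, 0.0746), ICB tumour 1 (0.61, 0.0765) or ICB tumour 2 (0.61, 0.0704). It was also lost without the filter on low counts (0.64, 0.0891). Without SD tumour 1, 6 members were called, and without ICB tumour 3, 2 were.

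The comparisons of blockade cross the libraries, so the values below belong to blockade and library together. In ICB over SD tumours 18 of 99 pairs rose, among 12 classes, and none fell; 1.03% of all 61706 pairs were called raised. The median log2 fold change of the members was 1.52, beside 0.03 over all pairs, and 91 pairs were positive. IRG members had 8 of the calls in 46 pairs and GBP members 10 in 53. Of the calls, 7 lay in Cxcr2+ neutrophils and 7 in mesenchymal cells, with 2 in Hilpda+ neutrophils and 1 each in proliferating cancer cells and Mmp+ M2 macrophages. Iigp1 had no call by edgeR in any of its 9 classes. DESeq2 called it in mesenchymal cells (log2 fold change 4.11, DESeq2 adjusted p = 2.4e-06) and in Trem2+ M2 macrophages (3.64, 0.0467).

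In Cxcr2+ neutrophils the 10 genes together had 2566, 1387 and 1629 CPM in ICB tumours, against 283, 212 and 286 CPM in SD tumours. Gbp2 had 971, 610.3 and 604 CPM in ICB neutrophils, against 129, 65.4 and 112 CPM in SD neutrophils (log2 fold change 2.88, SE 0.32, edgeR adjusted p = 1.6e-06). Gbp5 had 247, 196 and 225 CPM in ICB neutrophils, against 24.6, 27.2 and 39.2 CPM in SD neutrophils (2.83, SE 0.39). Neither gene overlapped between the groups.

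The other calls in this class were Ifi47 at 3.37, Irgm1 at 2.99, Gbp7 at 2.91, Gbp3 at 2.56 and Igtp at 1.80, so that 7 of the 9 members tested were called, where 1.52% of genes were called raised. Iigp1 had no UMI in SD neutrophils and 37.6, 40.9 and 26.8 CPM in ICB neutrophils, which makes it at least 7.34-fold higher at a floor of 3 counts over the SD group. The neutrophil markers summed to 50364 to 123994 CPM in ICB neutrophils and to 87706 to 128444 CPM in SD neutrophils.

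In mesenchymal cells the 10 genes together had 440.2, 612 and 872 CPM in ICB tumours, against 104, 55.7 and 60.5 CPM in SD tumours, and each of the 10 members was higher in every ICB tumour. Gbp3 had 61.1, 56.2 and 84.3 CPM in ICB tumours, against 10.5, 9.5 and 5.8 CPM in SD tumours (log2 fold change 2.82, SE 0.30, edgeR adjusted p = 3.8e-04). Gbp7 had 62.7, 54.9 and 89.1 CPM in ICB tumours, against 14.8, 8.15 and 4.97 CPM in SD tumours (2.71, SE 0.34). Both were called together with Gbp4 at 3.47, Irgm2 at 2.21, Igtp at 2.05, Ifi47 at 1.69 and Irgm1 at 1.60, where 1.96% of genes were called raised.

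Iigp1 had 69.3, 250.3 and 95.6 CPM in ICB mesenchymal cells, against 11.4, 5.43 and 4.97 CPM in SD mesenchymal cells. It was called by DESeq2 but not by edgeR, and 1 cell held 30.4% of its UMIs in the class. Markers of other cells differed between these groups as well. The macrophage list summed to 111 to 795 CPM in ICB mesenchymal cells and to 1906 to 3712 CPM in SD mesenchymal cells. The neutrophil list summed to 28.4 to 1037 CPM and 701 to 4249 CPM in the same order, with overlap. Without overlap, the monocyte list went the other way, at 1424 to 1763 CPM and 933 to 968 CPM. The proliferation list (126 to 219 and 328 to 500.4 CPM) and the platelet list (4.86 to 33.3 and 113 to 170.3 CPM) were lower in ICB tumours. Their part in the result was not tested.

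In proliferating cancer cells, where 0.364% of genes were called raised, Irgm1 was the single call of edgeR, with 41.6, 31.4 and 45.5 CPM in ICB tumours, against 12.9 and 11.1 CPM in SD tumours 1 and 3 (log2 fold change 1.67, SE 0.27, edgeR adjusted p = 0.0108). DESeq2 also called Gbp3 (DESeq2 adjusted p = 1.1e-07), Gbp2 (7.2e-04), Gbp7 (0.0149), Igtp (0.0344), Gbp4 (0.0478) and Ifi47 (0.0488) there. All 10 members had higher levels in every ICB tumour than in both SD tumours, Iigp1 for instance with 127, 141 and 203 CPM in ICB cancer cells, against 9.24 and 53.1 CPM in SD cancer cells. The neutrophil markers summed to 57 to 704 CPM in ICB cancer cells and to 984 to 2078 CPM in SD cancer cells, and their part was not tested. In Hilpda+ neutrophils, where 3.95% of genes were called raised, Gbp5 had 140, 112 and 44.6 CPM in ICB tumours, against 0, 0 and 5.09 CPM in SD tumours (4.86, SE 0.90, edgeR adjusted p = 0.00314), and Gbp7 had 90.6, 59.6 and 41 CPM in ICB tumours, against 0, 0 and 15.3 CPM in SD tumours (2.83, SE 0.77, adjusted p = 0.0306). The neutrophil markers summed to 36015 to 49081 CPM in ICB Hilpda+ neutrophils and to 64125 to 75242 CPM in SD ones, without overlap, and their part was not tested. In Mmp+ M2 macrophages, where 0.614% of genes were called raised, Gbp4 had 19, 35.1 and 59.9 CPM in ICB tumours, against 8.45, 0 and 0 CPM in SD tumours (log2 fold change 3.75, SE 1.01, edgeR adjusted p = 0.04). In Hilpda+ neutrophils Gbp5 lost its call with at least 30 cells per tumour (edgeR adjusted p = 0.0546) and under a stricter hashtag rule (0.0815).

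In sums over all cells, every one of the 10 members was higher in each ICB tumour than in each SD tumour. Of these, 3 were called, where 1.34% of genes were: Irgm2 (log2 fold change 1.87, SE 0.36, edgeR adjusted p = 0.0238), Gbp7 (1.47, SE 0.28, 0.0256) and Igtp (1.64, SE 0.33, 0.031). The median over the members was 1.81, beside 0.03 over all genes. Mesenchymal cells supplied 6.61% to 20.3% of the UMIs in ICB tumours and 23.7% to 28.7% in SD tumours. Several classes went the other way without overlap. Among them, Vcan+ monocytes supplied 3.53% to 13.2% and 0.672% to 2.33% in the same order. M1 macrophages supplied 5.61% to 9.43% and 2.12% to 3.61%, and proliferating cancer cells 24.3% to 33.1% and 18.9% to 22.4%. The part of this makeup was not tested. DESeq2 called 7 members. All 3 calls of edgeR were lost when SD tumour 2, SD tumour 3, ICB tumour 2 or ICB tumour 3 was left out, with adjusted p between 0.0666 and 0.124 for these genes, and 5 and 7 members were called without SD tumour 1 and BD tumour 1. In the classes the number called was 9 without SD tumour 2.

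In BD+ICB over BD tumours all 36 pairs were positive, and 14 of them in 4 classes were called, where 1.44% of all pairs were called raised. The median log2 fold change was 2.65, or 2.39 with the 6 genes that had no UMI in BD neutrophils at their bounds, beside 0.01 over all pairs.

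In Cxcr2+ neutrophils Gbp2 had 668, 1725 and 1879 CPM in BD+ICB tumours, against 58.4 and 40.5 CPM in BD tumours 2 and 3 (log2 fold change 5.08, SE 0.61, edgeR adjusted p = 2.3e-06). A further 4 members were called there, each with no UMI in the 27 BD neutrophils, in a class where 2.84% of genes were called raised. At the floor of 3 counts over the BD group, Gbp5 was at least 8.39-fold higher, Ifi47 at least 8.13-fold, Gbp7 at least 7.81-fold and Igtp at least 4.26-fold. The neutrophil markers summed to 42219 to 82500 CPM in BD+ICB neutrophils and to 102498 to 121935 CPM in BD neutrophils, without overlap, and their part was not tested. Igtp lost its call without BD tumour 2 (edgeR adjusted p = 0.0984).

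In Mmp+ M2 macrophages 5 members rose, where 0.783% of genes were called raised. Gbp4, one of the less studied GBPs, had 61.8, 91 and 38.4 CPM in BD+ICB tumours, against 2.86, 0 and 0 CPM in BD tumours (log2 fold change 5.16, SE 0.84, edgeR adjusted p = 0.00203). Iigp1 had 198, 162 and 128 CPM in BD+ICB tumours, against 5.72, 7.68 and 26.3 CPM in BD tumours (3.64, SE 0.59, edgeR adjusted p = 0.00927, or 0.0533 without BD tumour 2). Gbp5 at 3.34, Gbp2 at 2.90 and Gbp3 at 1.65 completed the set, and none of the 10 members overlapped between the groups. The macrophage markers summed to 7317 to 16470 CPM in BD+ICB tumours and to 10025 to 25329 CPM in BD tumours, and the dendritic markers to 51.2 to 70.7 CPM and 115 to 140.1 CPM in the same order. Their part was not tested.

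In Trem2+ M2 macrophages Igtp rose with 56.8, 41 and 27.7 CPM in BD+ICB tumours, against 9.68, 10.1 and 6.04 CPM in BD tumours (log2 fold change 2.47, SE 0.55, edgeR adjusted p = 0.0131). Gbp3 at 1.77 and Gbp7 at 1.47 were called in the same class, where 1.76% of genes were called raised. In M1 macrophages, where 1.04% were, Ifi47 was the only member called, with 96.9, 92.1 and 112 CPM in BD+ICB tumours, against 22.7 and 7.39 CPM in BD tumours 1 and 3 (2.48, SE 0.40, edgeR adjusted p = 0.00134). In M1 macrophages the macrophage markers summed to 4604 to 6385 CPM in BD+ICB tumours and to 8219 to 12176 CPM in BD tumours, and the platelet markers to 266 to 417 CPM and 1188 to 5164 CPM in the same order, both without overlap. In Trem2+ M2 macrophages the dendritic markers summed to 97.4 to 209 CPM in BD+ICB tumours and to 284 to 366 CPM in BD tumours. The part of these markers was not tested. Over the classes the number of calls was 8 without BD tumour 3, 9 without BD tumour 2 and 9 without BD+ICB tumour 2.

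In all cells of BD+ICB over BD tumours 7 members were called, where 3.9% of genes were, and the median over the 10 was 1.95, beside 0.02 over all genes. Iigp1 had 299, 143 and 147 CPM in BD+ICB tumours, against 24.8, 1.96 and 11.1 CPM in BD tumours (log2 fold change 3.50, SE 0.76, edgeR adjusted p = 0.0255). Gbp4 at 3.07, Gbp2 at 3.02, Ifi47 at 2.25, Igtp at 1.92, Gbp3 at 1.90 and Gbp7 at 1.66 were also called by edgeR, and Irgm1, Irgm2 and Gbp5 were not. DESeq2 also called Irgm1 (1.91, adjusted p = 0.00278) and Gbp5 (2.40, 0.0327). Proliferating cancer cells, which held 54% of the Iigp1 UMIs, supplied 15% to 25% of the UMIs in BD+ICB tumours and 0% to 7.45% in BD tumours, and the part of this makeup was not tested. None of the 10 overlapped between the groups. No member was called without BD tumour 3, and 2 were called without BD tumour 2 or without BD+ICB tumour 1, and 4 without BD+ICB tumour 2 or BD+ICB tumour 3. BD+ICB over BD shares its BD+ICB tumours with BD+ICB over ICB, and ICB over SD shares its ICB tumours with that comparison too, so their values stand side by side only.

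**Figure D5:**
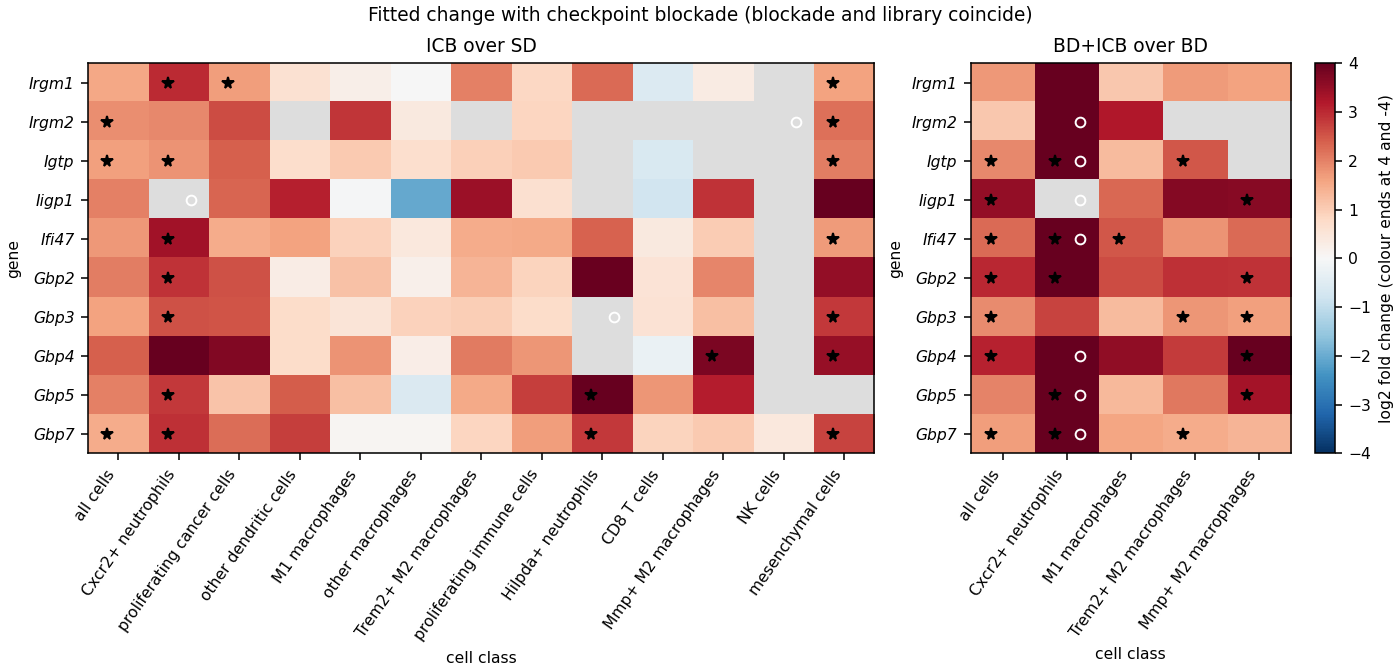
Fitted log2 fold change of each member (rows) by class (columns) for ICB over SD (left) and BD+ICB over BD (right), 2 comparisons in which blockade and library coincide; grey is not tested, a star marks an edgeR adjusted p under 0.05, and a ring marks a gene with no UMI in 1 group, so that the fitted value is no bound. Stars gather in Cxcr2+ neutrophils and mesenchymal cells on the left (7 each) and in Cxcr2+ neutrophils and Mmp+ M2 macrophages on the right (5 each).

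Other genes of the pathway were read from lists chosen for their roles. Of 19 other interferon-inducible GTPases, 16 were in the table. In BD+ICB over ICB 1 of their 39 pairs in classes rose, Gbp6 in proliferating cancer cells (log2 fold change 1.97, SE 0.24, edgeR adjusted p = 0.00136), and 1 of 13 genes rose in all cells, Gbp8 (1.37, SE 0.30, 0.0215). In ICB over SD 3 of 32 pairs rose, Gbp9 at 2.21 and Gbp6 at 2.26 in mesenchymal cells and 9930111J21Rik2 at 1.63 in Cxcr2+ neutrophils. In BD+ICB over BD 4 of 9 pairs rose, and in BD over SD 0 of 9.

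Upstream, the list of interferon-gamma, its receptor, kinases and factors held 12 genes. In BD+ICB over ICB 1 of its 127 pairs rose, the transcription factor Irf1 in proliferating cancer cells (log2 fold change 0.61, SE 0.12, edgeR adjusted p = 0.0267), and 1 fell, the feedback inhibitor Socs3 in CD4 T cells (-1.41, SE 0.33, 0.0477). Ifng itself rose in all cells of BD+ICB over ICB tumours (2.13, SE 0.53, edgeR adjusted p = 0.0451), as did Irf8 (0.80). The T cell markers summed to 506 to 1119 CPM in BD+ICB tumours and to 238 to 464 CPM in ICB tumours, and the CD8 markers to 90.4 to 220.1 CPM and 31.6 to 84.9 CPM in the same order, both without overlap. Their part was not tested. In ICB over SD 11 of 115 pairs rose and 1 fell, with Irf1 at 1.57 in proliferating cancer cells. In BD over SD none of 39 pairs in classes was called, while Ifngr1 at 0.73, Irf8 at 0.87, Ifngr2 at 0.63 and Jak2 at 0.71 rose in all cells, where 11.1% of genes did.

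Of 20 interferon-gamma response genes outside the GTPase families, 9 pairs rose and 2 fell of 226 in BD+ICB over ICB. In proliferating cancer cells these included the antigen presentation genes H2-K1 (log2 fold change 0.82, SE 0.09, edgeR adjusted p = 8.0e-04) and Tap1 (1.27, SE 0.17, 0.00378). In ICB over SD 34 of 207 pairs of this list rose. The type I interferon response list gave 2 raised of 130 pairs in BD+ICB over ICB, Oasl1 at 1.88 and Isg15 at 0.73 in Vcan+ monocytes, and 11 of 114 in ICB over SD. The list of type I receptor, kinase and factors gave 0 calls of 67 in BD+ICB over ICB and 3 of 63 in ICB over SD.

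The inflammasome partners of GBPs had 0 raised and 1 lowered of 80 pairs in BD+ICB over ICB, the inflammasome sensor Nlrp3 in CD8 T cells (log2 fold change -3.16, SE 0.37, edgeR adjusted p = 3.5e-05). The machinery of ATG8 conjugation, which guides IRG and GBP proteins to vacuoles, had 0 calls by edgeR in 103 pairs of BD+ICB over ICB and 0 in 96 pairs of ICB over SD.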

How the data were processed

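The authors deposited raw UMI counts per gene and cell, per the file headers, with a class and a tumour for each cell and hashtag counts. Cell Ranger, R 4.1 and the mm10 build are named in the submitters' processing notes. The sources used here do not give the hashtag caller, the cluster settings or the handling of reads shared by paralogues. No doublet caller was run, and a stricter hashtag rule was tried instead. From the deposited counts, UMIs were summed per tumour and class (at least 10 cells) and over all cells of a tumour. The 4 groups were fitted together with edgeR 4.0.16 in R 4.3.3 (TMM scaling, low-count filter, quasi-likelihood test), with Benjamini-Hochberg adjustment over all genes of a class and contrast and a threshold of 0.05. A contrast needed 2 tumours in each group. The script was tested on simulated counts. Alternatives included DESeq2 1.42.0, RLE scaling, no filter, at least 30 cells, at least 1000 UMIs per cell, a replicate block, only the groups compared, and leaving out each tumour. All 10 members were described; of the pairs of a comparison, up to 8 with the smallest adjusted p could be given in full. Members and lists were chosen with earlier results of these data known. Some values of a gene outside the 10 are not reported here.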

Additional observations from a re-analysis of the deposited data

Results flagged for a closer look

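In BD+ICB against ICB tumours some members ran in opposite directions in different classes, without overlap between the groups in either class. The difference between classes was not tested. These cases were picked because the groups did not overlap. Of the 10 members, 2 lay below and 8 overlapped in CD4 T cells, and 1 lay below and 9 overlapped in CD8 T cells. In NK cells 2 lay below, 2 lay above and 6 overlapped. In CD4 T cells the summed level of the 10 genes was 271, 371 and 387 CPM in BD+ICB tumours, against 817, 1174 and 551 CPM in ICB tumours, a ratio of 0.405, while it was higher in BD+ICB tumours in proliferating cancer cells, Vcan+ monocytes, Mmp+ and Trem2+ M2 macrophages and other macrophages. Gbp2 had 33.9, 51.8 and 45.5 CPM in BD+ICB CD4 T cells, against 377, 337 and 59.5 CPM in ICB CD4 T cells (ratio 0.17). Gbp5 had 0, 8.64 and 0 CPM in BD+ICB CD4 T cells, against 133, 137 and 22.3 CPM in ICB CD4 T cells (ratio 0.0296).

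In CD8 T cells Gbp5 had 8.45, 14.6 and 12.8 CPM in BD+ICB tumours, against 23, 42.3 and 35 CPM in ICB tumours (ratio 0.357). The 6 neutrophil markers summed to 22.8 to 178 CPM in BD+ICB CD4 T cells and 730 to 4450 CPM in ICB CD4 T cells. In CD8 T cells they summed to 23 to 40.4 CPM in BD+ICB tumours and 409.5 to 1845 CPM in ICB tumours. Their part in these ratios was not tested.

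In NK cells the ratios rest on few counts. Irgm2 had 2 and 0 UMIs in BD+ICB tumours 1 and 2, against 4 and 2 UMIs in ICB tumours 1 and 3 (ratio of mean CPM 0.398). Iigp1 had 1 and 3 UMIs in those BD+ICB tumours, against 5 and 3 UMIs in those ICB tumours (ratio 0.496). Irgm2 was higher in BD+ICB tumours in other macrophages, and Iigp1 in proliferating cancer cells, Vcan+ monocytes, Mmp+ M2 macrophages and other macrophages.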

How the results depend on the processing

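Of 1705 fold changes of single members under the alternatives, 1589 kept their direction and side of the threshold, 60 lost a call, 39 gained one and 17 changed sign. The number of member calls in classes for BD+ICB over ICB was 3 as reported, 5 with DESeq2, 15 without a low-count filter, 1 with at least 30 cells, 5 with only the groups compared, and 1 to 7 on leaving out a tumour. For ICB over SD it was 18, with 37, 10 and, without a tumour, 9 to 23 under no filter, 30 cells and left-out tumours. For BD+ICB over BD it was 14, with 24 unfiltered and 8 to 19 without a tumour. In all cells, BD+ICB over ICB had 0 calls, 2 with only the groups compared and 0 to 1 without a tumour. The diet over both libraries had 1, 0 unfiltered and 0 to 6 without a tumour. ICB over SD had 3, 7 with DESeq2, 1 unfiltered and 0 to 7 without a tumour. BD+ICB over BD had 7, 4 unfiltered and 0 to 9 without a tumour. BD over SD had 0, and 0 to 2 without a tumour.

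The replicate block gave 13 calls in classes for BD+ICB over ICB and 28 for ICB over SD, and in all cells 1 and 5. The share of all genes called under each alternative is not given here or above. Counts of member calls under the alternatives are therefore descriptions only. Same-numbered tumours correlated at 0.0327 to 0.271 in their deviations from group means, below 0.1 for 3 of the 6 pairs, so the numbers were not taken as pairing.

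In all cells of BD over SD tumours, Gbp2 had a log2 fold change of -0.06 with DESeq2. Leaving out a tumour gave -0.17 to 1.29 for Irgm1, -0.31 to 0.86 for Igtp, -1.30 to 0.68 for Iigp1, -0.80 to 0.73 for Ifi47, -0.54 to 1.16 for Gbp2, -0.16 to 1.31 for Gbp3, -0.92 to 2.13 for Gbp4, -1.06 to 1.36 for Gbp5 and -0.02 to 0.81 for Gbp7. Iigp1 in M1 macrophages ranged from -8.91 to 1.44 in BD over SD and from -0.94 to 9.41 in the difference of diet effects. In Trem2+ M2 macrophages the diet over both libraries gave -1.64 to 1.80 for Gbp4 and -1.96 to 1.78 for Iigp1. The cause was not tested. At least 30 cells gave no value for BD+ICB over BD, the diet over both libraries or the difference, and the last 2 use all 4 groups. Depth limits the BD tumours most, with 70 cells in the smallest.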
